A study of Mus musculus with 32 samples.

Results

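The genes described here are 9 complement genes, chosen by symbol from the 31053 genes that the files list: *C1qa*, *C1qb*, *C1qc*, *C1ra*, *C1s1*, *C3*, *C4b*, *Cfb* and *Serping1*. All 9 were found once in the gene list, and none of them served as a marker of the cell types below. They were measured in BMSC-OBs by scRNA-seq, which counts the transcripts of single cells caught in droplets. BMSC-OBs are stromal cells grown out of mouse bone marrow and differentiated in an osteogenic medium. The mice were Diversity Outbred (DO) animals, descended from several inbred founder strains, so no genotype or treatment group exists and the comparisons are between cell types of the same pools. Cells of 4 or 5 mice were combined in each of 16 pools (numbered 1 to 14, 17 and 18, 77 mice in all), every culture received the same osteogenic treatment, and no age is given in the labels. Each pool was sequenced in 2 runs. The run named HGYVNCCX2 was used here, and the other run, which re-reads the same droplets, served as a check.

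Total counts were between 53990642 and 100777353 unique molecular identifiers (UMIs, 1 per captured transcript) per pool, and 88909 of 107853 barcodes passed the cell filters. Median depth per cell was between 2782 and 15273 UMIs. Pool 13 was the shallowest, and only 84.5% of its barcodes were found again in the second run, against 98.2% or more in the other pools. Pairs of pools shared between 3 and 28 barcode sequences. Cells were assigned to 12 gates by the mean standardized level of 6 or 8 marker genes per gate, and 30511 cells in no gate were left aside. The mesenchymal gates were late mesenchymal progenitors (LMPs, 11531 cells), marrow adipogenic lineage progenitors (MALPs, 9098 cells), osteoblasts (12731 cells) and osteocyte-like cells (7785 cells). The myeloid gates were macrophages (10855 cells), monocytes (1819 cells), osteoclasts (892 cells) and granulocytes (1779 cells). Between 6 and 8 of the 8 markers of each of these gates were highest in their own gate, which their use in assigning the cells largely builds in. The other markers ranked second there, namely 2 of the osteoblast, 2 of the macrophage and 1 of the monocyte list. In the monocyte gate, *Cd74*, *H2-Ab1*, *H2-Aa*, *Ear2* and *H2-Eb1* were seen in 83.45%, 75.1%, 74.4%, 53.1% and 50.7% of cells. Its markers *Plac8*, *Ccr2* and *Ms4a4c* were seen in 36.2%, 25.7% and 12.3%. The median score of the macrophage markers was 1.195 there, against 1.501 in the macrophage gate. The name monocyte therefore stands for this marker list, which includes MHC class II genes, and not for a settled cell type. A gate needed 20 cells in a pool to give a value, which left 16 pools for macrophages and each mesenchymal gate, 10 for monocytes, 14 for osteoclasts and 11 for granulocytes. Levels are given as UMIs per 10,000 UMIs of the summed cells, as mean ± SD over pools. A captured transcript is counted at its 3′ end, so a level is a share of molecules that does not scale with gene length.

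Complement is a chain of serum proteases and their substrates that tags microbes, immune complexes and dying cells. In the classical pathway, the C1q recognition protein, built from chains A, B and C, binds its target and carries the proteases C1r and C1s, which cleave C4 and C2 to form an enzyme that cleaves C3. Factor B takes the place of C2 in the alternative pathway, and C1 inhibitor, the product of *Serping1*, stops C1r and C1s. Liver supplies most of these proteins to serum. C1q is the textbook exception, being made mainly by macrophages and related myeloid cells.

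Several of the 9 genes lie beside each other in the genome (GRCm38, GENCODE M21). The 3 C1q chain genes, each of 3 exons, occupy 18675 bases of the minus strand at chr4:136880129-136898803. *C1ra* (11 exons, plus strand) and *C1s1* (12 exons, minus strand) occupy chr6:124512405-124542359, where *C1s1* overlaps the antisense gene *Gm16567*. *C4b* (41 exons) and *Cfb* (18 exons) lie on the minus strand at chr17:34728380-34743882 and chr17:34856374-34862518, *C3* (41 exons) at chr17:57203970-57228136 and *Serping1* (8 exons) at chr2:84765387-84775444, all on the minus strand. *Cfb* overlaps the same-strand gene *Gm20547*, and *C3* and *Cfb* each contain a microRNA gene. *C4b*, *C1ra* and *C1s1* have close copies in *C4a*, *C1rb* and *C1s2*. The gene list holds no *C4a*, so reads of that copy may be in *C4b* or be lost, and the *C4b* value is uncertain to that extent.

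RefSeq gave a window of 250 bases before the start for 5 of the 9 genes, and 3 of these windows lie wholly outside the gene model. They are shown because they belong to genes of 3 unlike patterns, namely a macrophage gene (*C1qb*), a gene highest in MALPs and LMPs (*C1s1*) and a gene highest in granulocytes (*C3*). Each is written 5′ to 3′ on the strand of the gene (RefSeq, GRCm38.p6, minus strand throughout) at chr4:136886201-136886450, chr6:124542360-124542609 and chr17:57228137-57228386, and capitals mark matches to the motifs named next.
C1qb: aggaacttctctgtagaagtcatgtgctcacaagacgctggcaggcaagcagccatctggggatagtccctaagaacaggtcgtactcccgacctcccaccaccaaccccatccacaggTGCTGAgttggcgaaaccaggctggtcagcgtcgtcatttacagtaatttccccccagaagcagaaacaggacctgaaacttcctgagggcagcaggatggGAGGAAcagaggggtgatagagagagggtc
C1s1: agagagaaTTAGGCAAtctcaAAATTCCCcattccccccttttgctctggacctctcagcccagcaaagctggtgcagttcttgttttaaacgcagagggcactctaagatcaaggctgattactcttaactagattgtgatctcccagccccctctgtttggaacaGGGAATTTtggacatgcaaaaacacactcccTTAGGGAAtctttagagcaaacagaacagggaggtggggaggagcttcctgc
C3: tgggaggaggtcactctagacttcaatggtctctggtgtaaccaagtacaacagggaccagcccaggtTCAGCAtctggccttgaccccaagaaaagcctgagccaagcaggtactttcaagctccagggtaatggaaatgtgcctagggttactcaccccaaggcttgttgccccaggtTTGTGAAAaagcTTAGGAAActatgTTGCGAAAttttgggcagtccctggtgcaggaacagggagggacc
Both strands were searched for 7 motifs, and the share of all 32851 windows of the same length that hold each is given with it. These were a PU.1 core (GAGGAA, 23.3%), a C/EBP motif (TTNNGNAA, 36.8%), a MAF core (TGCTGA, 16.1%), a kappa-B motif (GGGAATTT, 0.843%), a TATA box (TATAAA, 12.4%), a GAS motif (TTCNNNGAA, 7.02%) and an ISRE (GAAA, any 2 bases, GAAA, 2.98%). The *C1qb* window held a PU.1 core 30 bases and a MAF core 131 bases before the start. The *C1s1* window held 2 kappa-B matches, 83 and 229 bases before the start, and 2 C/EBP matches at 52 and 242 bases. The *C3* window held C/EBP matches at 70, 58 and 45 bases and a MAF core at 182 bases. None of the 3 windows held the TATA box, GAS or ISRE letters. A match describes the letters only, and occupancy was not measured.

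The 9 genes fell into unlike patterns over the 8 gates. The C1q chains were macrophage genes, with 83.8% (*C1qa*), 83.1% (*C1qb*) and 82.9% (*C1qc*) of their UMIs from gated cells in the macrophage gate. *Serping1*, *C1s1* and *C1ra* had 97.8%, 96.9% and 91.9% of their gated UMIs in the mesenchymal gates. By level, *C1ra* in osteoblasts (0.0414 UMIs per 10,000) and osteocyte-like cells (0.0373) lay under its mean in macrophages (0.0479). MALPs (0.213) and LMPs (0.142) lay above it. *C4b* was a MALP gene, with 78.1% of its gated UMIs there. *C3* was shared between granulocytes (31%), monocytes (18.1%) and the mesenchymal gates (45.1%), and *Cfb*, with 411 gated UMIs in all, between MALPs (47.2%) and monocytes (32.4%). These shares depend on how many cells each gate held and on their depth, so levels per 10,000 UMIs are used below.

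**Figure D1:**
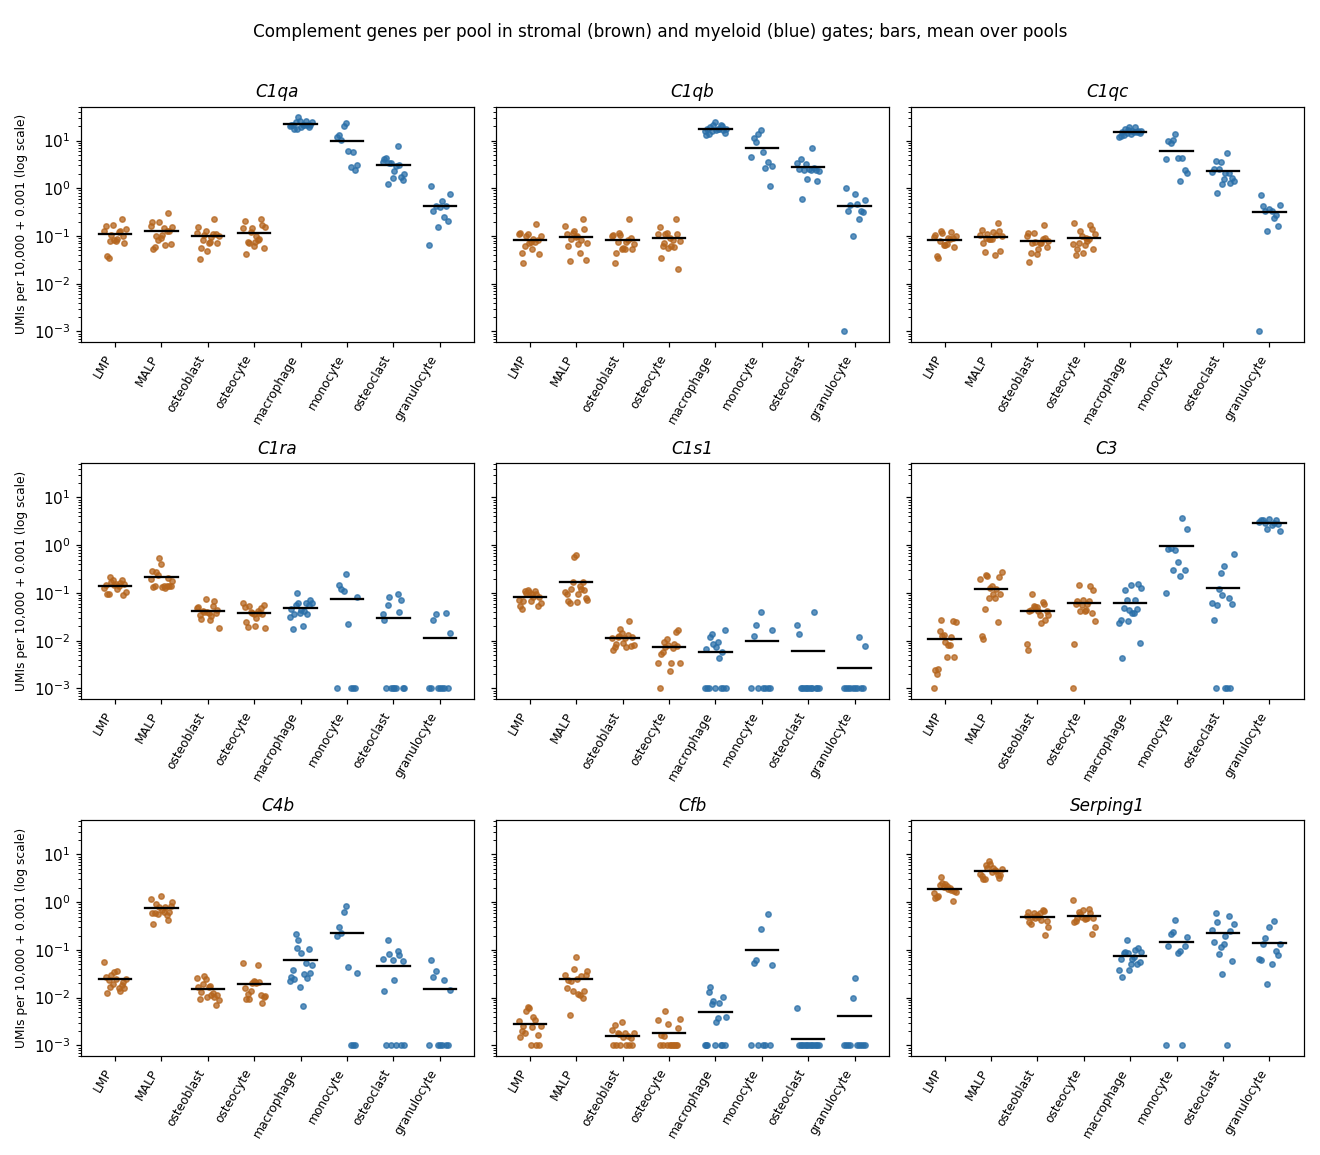
UMIs per 10,000 (plus 0.001, log scale) of the 9 complement genes in the 4 mesenchymal (brown) and 4 myeloid (blue) gates, 1 point per pool, with a bar at the mean over pools. The means of the C1q chains are highest in macrophages, those of C4b and Serping1 in MALPs, and that of C3 in granulocytes, whose 11 pools sit between 1.96 and 3.53; points at the bottom of a panel are pools with a value of 0.

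The macrophage gate was compared with the sum of the 4 mesenchymal gates to ask which complement genes belong to which side of the culture. Of the 8 members that passed the count filter (all except *Cfb*), 3 were higher and 4 lower in macrophages, where 39.1% of the 13053 genes tested were higher and 46.5% lower, so a call alone says little. *C1qa*, chain A of C1q, had between 17.4 and 30.8 UMIs per 10,000 in the 16 macrophage sums, with a median of 21.2, against 0.0373 to 0.236 (median 0.0992) in the mesenchymal sums. *C1qb* had between 13.0 and 24.3 (median 17.2) and *C1qc* between 11.6 and 19.5 (median 15.2). No macrophage pool overlapped a mesenchymal pool for any chain, and the log2 fold changes were 7.72 ± 0.17 (SE), 7.72 ± 0.18 and 7.53 ± 0.16 (edgeR quasi-likelihood test, adjusted p of 1.63e-21, 3.82e-21 and 8.52e-22, higher in 16 of 16 pools). The mesenchymal C1q values and the macrophage values of *Serping1* are taken as background below, so the differences of these genes are not read as exact folds. On the mesenchymal side, *Serping1* was lower in macrophages in 16 of 16 pools, by a log2 fold change of -4.49 ± 0.13 (adjusted p = 3.12e-19), and *C1s1*, the protease that cleaves C4 and C2, by -3.61 ± 0.29 (adjusted p = 6.34e-11). *C1ra*, the protease that activates C1s, differed by -1.13 ± 0.14 (adjusted p = 7.76e-08) and *C4b* by -1.12 ± 0.30 (adjusted p = 0.00134), in 16 and 13 of 16 pools, with overlapping ranges for both. Of the mesenchymal gates, only MALPs (0.739 UMIs per 10,000) had a higher *C4b* mean than macrophages (0.0619). LMPs (0.0234), osteocyte-like cells (0.0182) and osteoblasts (0.0142) had lower means. *C3*, the central substrate, gave 0.19 ± 0.27 (edgeR, adjusted p = 0.519) and was higher in 9 of 16 pools.

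All 3 chains were found in 72.4% of macrophage-gate cells and at least 1 in 91.5%, with a median of 17 and a 99th percentile of 165 C1q UMIs per cell. Summed over pools, there were 0.767 *C1qb* and 0.665 *C1qc* UMIs per *C1qa* UMI, and by pool these ratios lay between 0.607 and 0.967 and between 0.55 and 0.844. Among gates, the order of *C1qa* was macrophage (21.9 ± 3.41 UMIs per 10,000, n = 16), monocyte (9.85 ± 7.28, n = 10), osteoclast (3.09 ± 1.66, n = 14) and granulocyte (0.426 ± 0.304, n = 11), followed by MALP (0.127 ± 0.0666), osteocyte (0.113 ± 0.0559), LMP (0.109 ± 0.0508) and osteoblast (0.0973 ± 0.0459). Macrophages and monocytes differed by more than the larger SD, and so did osteoclasts and granulocytes. Monocytes and osteoclasts, granulocytes and MALPs, and the neighbouring mesenchymal gates did not. *C1qb* and *C1qc* had the same order, except that for them granulocytes and MALPs also differed by more than the larger SD.

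The low C1q values outside the monocyte-macrophage gates were read against T-cells, which are not known as a source of C1q. After each cell was thinned to 2000 UMIs, *C1qa* was seen in 79.6% of macrophages (95% exact binomial interval 78.8 to 80.5), 53.4% of monocytes (50.9 to 55.8) and 25.8% of osteoclasts (22.4 to 29.4). It was seen in 9.6% of T-cells (7.03 to 12.7), 5.92% of granulocytes (4.7 to 7.34) and 2.86% of mesenchymal cells (2.69 to 3.04). Without thinning, the shares were 84.3% in macrophages at a median of 4384 UMIs, 13.4% in T-cells at 3505.5 UMIs and 12% in mesenchymal cells at 14786 UMIs. The T-cell values were uneven over pools. Of the UMIs in the 5 T-cell pools with enough cells, pool 8 held 129 of 242 for *C1qa*, 51 of 85 for *Serping1* and 9 of 9 for *C4b*. It held 0 of 4 for *C1ra* and 0 of 5 for *C3*. For some members the T-cell reference thus rests largely on 1 pool. Thinned shares lay between 3.45% and 13.3% in 4 T-cell pools and between 1.10% and 11.4% in 16 mesenchymal pools, the *C1qa* level in T-cells was highest in pool 18 (3.78 UMIs per 10,000) and lowest in pool 5 (0.246), and 1 T-cell held 75 C1q UMIs. The pooled mesenchymal and granulocyte shares lay below that of T-cells and are taken as background, so the C1q values of these gates are not read as expression. This also holds for the small C1q differences among mesenchymal gates below. For *C1s1*, the thinned shares of macrophages (0.0555%) and osteoblasts (0.206%) lay within the interval of T-cells (0.00565 to 1.24), as did those for *C1ra* (0.81% and 0.86%), so their differences from these gates are not read as exact folds either. Intervals here and below cover counting error only. For *C1ra*, *C1s1*, *C3* and *Cfb* the thinned T-cell interval rests on 1 of 448 cells, and for *C4b* on 0 of 448. A share within so wide an interval is shown neither to be expression nor to be background.

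**Figure D2:**
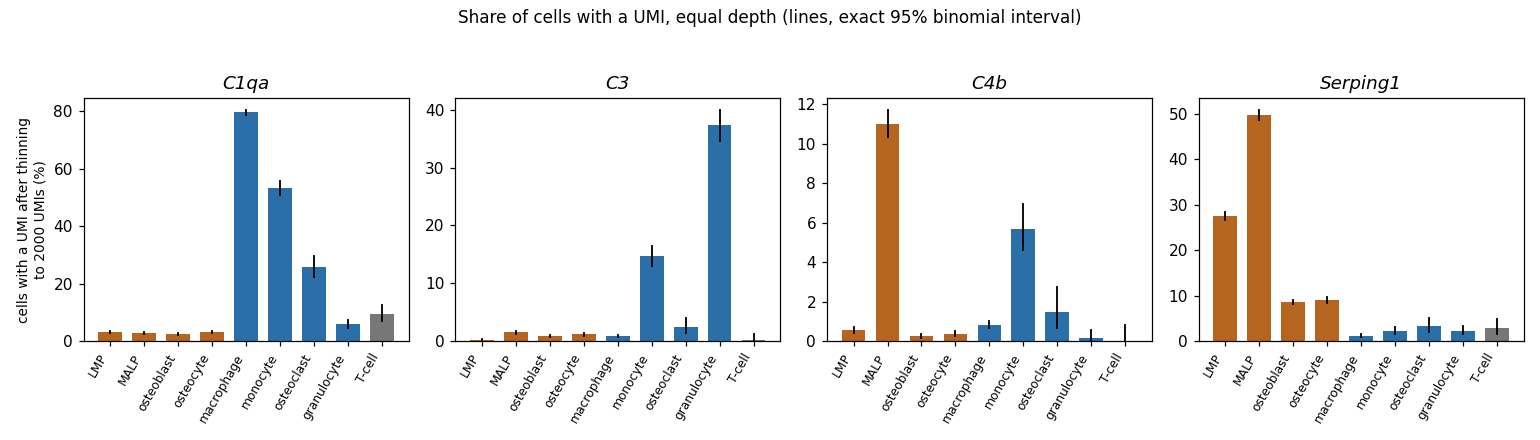
Share of cells with at least 1 UMI of C1qa, C3, C4b or Serping1 after every cell was thinned to 2000 UMIs, by gate (brown mesenchymal, blue myeloid, grey T-cells), with exact 95% binomial intervals as lines. C1qa reaches 79.6% of macrophages, C3 37.3% of granulocytes, C4b 11% of MALPs and Serping1 49.9% of MALPs.

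The other myeloid gates were each compared with macrophages. In monocytes (10 pools), 3 of the 7 members tested were higher and 3 lower, where 13.2% of the 9347 genes tested were higher and 12.7% lower. *C1qa*, *C1qb* and *C1qc* were lower by log2 fold changes of -1.44 ± 0.27, -1.53 ± 0.26 and -1.55 ± 0.26 (edgeR, adjusted p of 8.02e-04, 3.40e-04 and 3.39e-04). *C1qa* in monocytes was 20.3 and 22.8 UMIs per 10,000 in pools 7 and 8 and between 2.4 and 13.2 in the other 8 pools. In these 2 pools the macrophage markers also summed to 41.5 and 69 per 10,000 in the monocyte gate, over whose pools the sum had a range of 14.5 to 69 and a median of 27.5, against 47.5 to 64 in the macrophage gate itself. The sums were 44.8 and 44.1 in pools 5 and 6, above that of pool 7, where *C1qa* was 13.2 and 10.2. Their part in the result was not tested, and without pools 7 and 8 the *C1qa* value was -1.71. In osteoclasts (14 pools), 3 of the 4 members tested were lower and 1 higher (background 16.8% lower and 16.2% higher of 8462 genes). The chains were lower by -3.00 ± 0.15, -2.86 ± 0.16 and -2.94 ± 0.16 (edgeR, adjusted p of 1.28e-13, 6.91e-13 and 4.16e-13). Macrophage markers summed to between 16.9 and 31 per 10,000 in the osteoclast gate (median 23.7), against a median of 51.8 in macrophages. The part of these markers in the C1q level of osteoclasts was not tested. In granulocytes (11 pools), 3 of the 5 members tested were lower and 2 higher (background 36.1% lower and 34.1% higher of 7896 genes), and the chains were lower by -5.29 ± 0.22, -5.01 ± 0.25 and -5.19 ± 0.21 (edgeR, adjusted p of 9.55e-15, 1.33e-13 and 3.30e-15). The granulocyte level is taken as background above, so these values are not read as exact folds. Per cell, no C1q UMI was found in 8.54% of macrophages, 30.9% of monocytes and 48.8% of osteoclasts, and the 90th percentile of C1q UMIs per 10,000 was 110.9, 95.2 and 35.4 in these gates.

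*Serping1*, which encodes C1 inhibitor, was the member with most UMIs in stroma. The 16 MALP sums held between 3.00 and 7.44 UMIs per 10,000 (median 4.43) and the 16 LMP sums between 1.05 and 3.30 (median 1.84). It was higher in MALPs in every pool, although the ranges of both gates touched. Osteoblasts (0.484 ± 0.133) and osteocyte-like cells (0.523 ± 0.205) followed and did not differ by more than their spread. After thinning, *Serping1* was seen in 49.9% of MALPs, 27.6% of LMPs, 9.06% of osteocyte-like cells and 8.63% of osteoblasts, against 2.9% of T-cells (1.55 to 4.91). It was also seen in 18.5% of endothelial cells (15 to 22.6) and 13.4% of glial cells (10 to 17.3), 2 small gates outside the 8, where its levels were 1.56 ± 1.14 (n = 11) and 0.999 ± 0.621 (n = 8) UMIs per 10,000. Shares in macrophages (1.21%), monocytes (2.19%), granulocytes (2.31%) and osteoclasts (3.39%) lay below or within the interval of T-cells and are taken as background. *Serping1* was therefore not read as expressed in myeloid cells, although the test called it higher than in macrophages in osteoclasts (1.54 ± 0.32, edgeR adjusted p = 4.41e-04, higher in 9 of 14 pools), granulocytes (1.18 ± 0.28, adjusted p = 7.97e-04, higher in 5 of 11 pools, and 0.64 with adjusted p = 0.0503 when scaled by library size) and monocytes (1.16 ± 0.34, adjusted p = 0.0172, higher in 7 of 10 pools, and 0.64 with adjusted p = 0.12 without pools 7 and 8). In osteoclasts it was highest in pool 3 (0.601), the pool in which MALP markers in the osteoclast gate were also highest, summing to 54.2 against a median of 6.21 over its pools and 3.19 in macrophages. All 8 MALP markers had a higher mean in osteoclasts than in macrophages, and their sum was higher in 9 of 14 pools. The 6 general mesenchymal markers also had higher means in osteoclasts, but their sum was higher there in 5 of 14 pools, with a median of 17.4 against 19.2. The part of either list in the result was not tested.

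MALPs were compared with LMPs, the progenitors from which the adipogenic lineage branches. Of the 8 members tested, 4 were higher in MALPs and none lower, beside 39.3% of the 11916 genes tested that were higher and 35.4% that were lower. The 4 that were not called were the C1q chains and *C1ra*. *C4b*, whose product is cleaved by C1s, had the largest estimated difference, with between 0.347 and 1.34 UMIs per 10,000 in MALPs (median 0.659) against 0.0118 to 0.055 in LMPs (median 0.0212). No MALP pool overlapped an LMP pool, and the log2 fold change was 4.72 ± 0.13 (edgeR, adjusted p = 3.90e-18). In thinned cells, *C4b* was seen in 11% of MALPs (10.3 to 11.7) and 0.547% of LMPs (0.413 to 0.709). The LMP share lay within the interval of T-cells (0 to 0.82). This *C4b* difference is therefore not read as an exact fold, nor is its order against that of *C3*. *C3* was between 0.00972 and 0.273 in MALPs (median 0.106) and between 0 and 0.0256 in LMPs (median 0.00782), with a log2 fold change of 3.5 ± 0.24 (adjusted p = 2.07e-11), higher in 16 of 16 pools. *Serping1* was higher by 1.04 ± 0.08 (adjusted p = 7.56e-11). *C1s1* was called at 0.47 ± 0.19 (adjusted p = 0.0268) and *C1ra* was not at 0.27 ± 0.12 (adjusted p = 0.0583), each higher in 12 of 16 pools.

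The *C1s1* call rested on 2 pools. In MALPs *C1s1* stood at 0.576 and 0.62 UMIs per 10,000 in pools 7 and 8 and between 0.0609 and 0.169 in the other 14, and *C1ra* at 0.532 and 0.405 against 0.128 to 0.29. *Serping1* was also highest in these pools, at 7.44 and 6.46, and pool 8 was highest for *C4b* (1.34) and *Cfb* (0.0702). Without pools 7 and 8, *C1s1* gave 0.17 ± 0.10 (edgeR, adjusted p = 0.142), *C1ra* 0.11 ± 0.10 (adjusted p = 0.318), *C4b* 4.67 ± 0.14 and *Serping1* 0.99 ± 0.08, the last 2 still called. Scaling by library size moved the median log2 fold change of all genes by 0.24 and the share of calls that were higher from 52.6% to 73.8%, and *C1ra* was then called at 0.51 (adjusted p = 6.59e-04). *Cfb*, the protease component of the alternative pathway, did not pass the filter. It stood between 0.00329 and 0.0702 in MALPs and between 0 and 0.00524 in LMPs and was higher in MALPs in 16 of 16 pools. It held 194 UMIs in MALPs and 35 in LMPs. Markers of other cell types moved the same way, since 7 of 8 granulocyte and 7 of 8 macrophage markers were higher in MALPs. The granulocyte markers summed to 0.114 to 1.47 in MALPs (median 0.546) and 0.0266 to 1.2 in LMPs (median 0.334), against 1966 to 3058 in the granulocyte gate, where *C3* had a median of 2.98. The macrophage markers summed to 0.681 to 1.58 in MALPs and 0.23 to 0.787 in LMPs, with none of the 8 at 0. The part of either marker list in the *C3* result was not tested. In thinned cells, *C3* was seen in 1.51% of MALPs (1.26 to 1.80) and 0.234% of LMPs (0.15 to 0.348), against 0.223% of T-cells (0.00565 to 1.24), and the *C3* differences from LMPs, here and in osteoblasts, are therefore not read as exact folds.

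In osteoblasts, both C1 proteases and their inhibitor were lower than in LMPs, and *C3* was higher. All 8 members tested were called, 4 higher and 4 lower, beside 39.5% higher and 40.0% lower of 12270 genes. *C1s1* was lower in osteoblasts in every pool (0.00526 to 0.0251 UMIs per 10,000 against 0.0452 to 0.114, with no overlap), by -2.64 ± 0.09 (edgeR, adjusted p = 1.62e-16). *Serping1* was lower by -1.60 ± 0.10 (adjusted p = 1.59e-12), *C1ra* by -1.43 ± 0.09 (adjusted p = 2.93e-12) and *C4b* by -0.37 ± 0.15 (adjusted p = 0.0295, lower in 14 of 16 pools). The *C4b* call was lost in the other run (-0.29, adjusted p = 0.0658) and without the pool as a block (-0.40, adjusted p = 0.0906). Thinned *C4b* shares of osteoblasts (0.258%) and LMPs (0.547%) both lay within the interval of T-cells (0 to 0.82). This *C4b* difference is therefore not read as one of expression. *C3* was higher, with a median of 0.041 against 0.00782 and a log2 fold change of 2.46 ± 0.27 (edgeR, adjusted p = 3.32e-08). The granulocyte markers summed to a median of 0.183 in osteoblasts and 0.334 in LMPs, with 1 of 8 higher in osteoblasts. Their part in the *C3* result was not tested. The thinned share of osteoblasts with *C3* was 0.851% (0.692 to 1.035), against 0.234% of LMPs (0.15 to 0.348). It lay within the interval of T-cells, which rests on 1 of 448 cells and cannot separate shares of this size from background. The other 3 calls were the C1q chains (0.22, 0.33 and 0.28), which are taken as background above and turned to -0.16, -0.04 and -0.10 when scaled by library size, a choice that moved the median of all genes by -0.37 and the share of calls that were higher from 49.7% to 22.5%. Between osteocyte-like cells and osteoblasts, 3 of 7 members tested were higher and none lower, beside 31.5% higher and 31.1% lower of 11684 genes. *C3* was higher by 0.56 ± 0.14 (edgeR, adjusted p = 0.00186), although its thinned share in osteocyte-like cells, 1.17%, also lay within the interval of T-cells (0.00565 to 1.24). Also called were *C1qa* and *C1qc*, by 0.19 ± 0.08 and 0.20 ± 0.08 (edgeR, adjusted p of 0.0407 and 0.0343), at the background level. *Serping1* gave 0.10 ± 0.08 (adjusted p = 0.278), *C1ra* -0.15 ± 0.11 (adjusted p = 0.245) and *C4b* 0.30 ± 0.21 (adjusted p = 0.217). *C1s1* did not pass the filter, and its level was 0.00621 ± 0.00437 UMIs per 10,000 in osteocyte-like cells against 0.0106 ± 0.00496 in osteoblasts, lower in 15 of 16 pools. With no count filter it was called lower (-0.71, edgeR, adjusted p = 0.0067), and *C1ra* was called lower in the other run (-0.34, adjusted p = 0.0185).

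**Figure D3:**
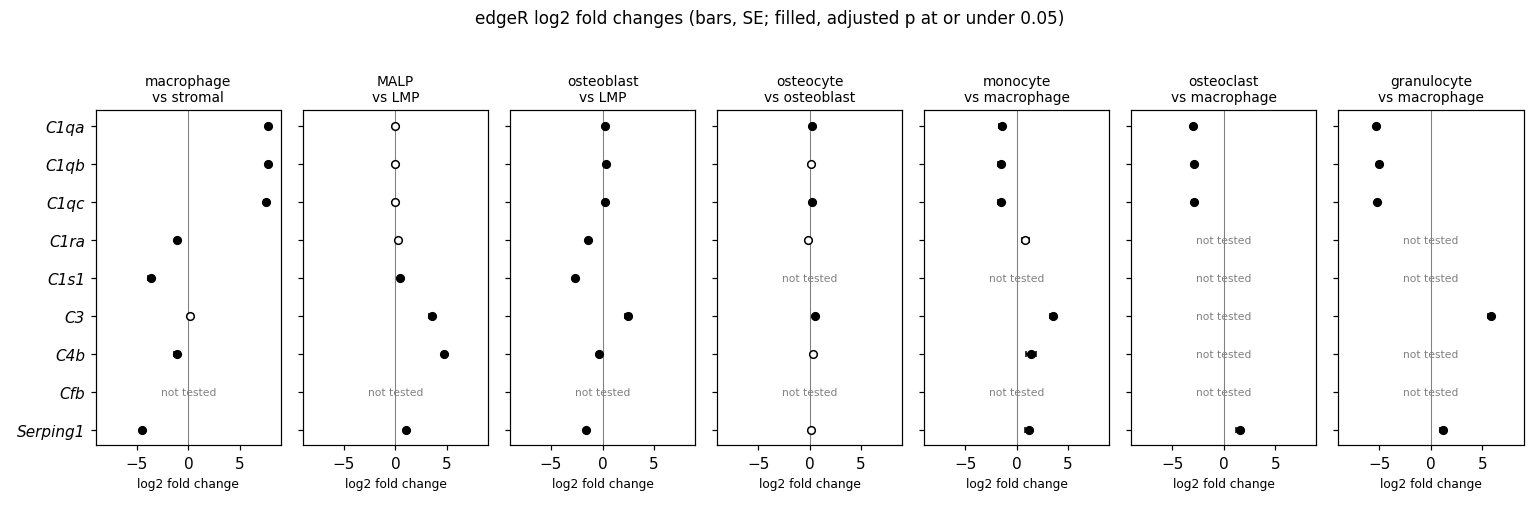
Log2 fold changes (edgeR, points, with SE bars) of the 9 genes in 7 comparisons of gates, filled where the adjusted p was at or under 0.05; genes that the count filter removed are marked as not tested. The C1q chains range from 7.72 in macrophages against the mesenchymal gates to -5.29 in granulocytes against macrophages, while C3 reaches 5.81 in granulocytes.

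The other members had orders of their own over the 8 gates. *C1ra* was highest in MALPs (0.213 ± 0.115 UMIs per 10,000) and LMPs (0.142 ± 0.0355), followed by monocytes (0.0729 ± 0.0842), macrophages (0.0479 ± 0.0209), osteoblasts (0.0414 ± 0.0144), osteocyte-like cells (0.0373 ± 0.0136), osteoclasts (0.0286 ± 0.0345) and granulocytes (0.0102 ± 0.0153), and no neighbours differed by more than the larger SD. *C1s1* was also highest in MALPs (0.166 ± 0.172) and LMPs (0.0813 ± 0.023), and the other 6 gates had means of at most 0.0106, a step from LMPs that exceeded the SD. *C4b* led in MALPs (0.739 ± 0.262), beyond the SD of monocytes (0.225 ± 0.286), and all later steps, from macrophages (0.0619 ± 0.059) and osteoclasts (0.0453 ± 0.049) down to LMPs (0.0234 ± 0.011) and osteoblasts (0.0142 ± 0.00638), were within the SD. *C3* led in granulocytes (2.93 ± 0.499), beyond the SD of monocytes (0.978 ± 1.13), followed by osteoclasts (0.125 ± 0.183), MALPs (0.123 ± 0.0845), macrophages (0.0605 ± 0.0478), osteocyte-like cells (0.0604 ± 0.041), osteoblasts (0.0412 ± 0.0214) and LMPs (0.00992 ± 0.00869). Of these steps, that from osteoblasts to LMPs exceeded the SD. *Cfb* was highest in monocytes (0.0993 ± 0.182) and MALPs (0.0231 ± 0.016), and the other 6 gates had means of at most 0.0041, a step from MALPs beyond the SD.

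*C3* was higher in granulocytes and in monocytes than in macrophages. It stood between 1.96 and 3.53 UMIs per 10,000 in all 11 granulocyte sums (median 2.98), against 0.00331 to 0.152 in macrophages (median 0.0436). The groups did not overlap, and the log2 fold change was 5.81 ± 0.23 (edgeR, adjusted p = 2.48e-15). In monocytes it was 3.68 and 2.24 in pools 14 and 18 and between 0.0989 and 0.856 in the other 8, with a log2 fold change against macrophages of 3.56 ± 0.29 (adjusted p = 1.18e-07) that was 3.15 without those pools (adjusted p = 7.68e-06). Granulocyte markers were highest in the same monocyte sums, at 18.4 and 31.9 against 7.89 or less elsewhere. Their sum was 1966 to 3058 in the granulocyte gate, and their part in the result was not tested. After thinning, *C3* was seen in 37.3% of granulocytes, 14.6% of monocytes and 0.899% of macrophages, the last within the interval of T-cells, so both differences from macrophages are not read as exact folds.

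*C4b* and *Cfb* had their second-highest and highest means in monocytes, with a wide spread. *C4b* was 0.812 and 0.631 UMIs per 10,000 in pools 8 and 7, between 0.198 and 0.304 in pools 2, 5 and 6, and at or below 0.042 in the other 5, 3 of which were at 0. It was higher than in macrophages by 1.39 ± 0.50 (edgeR, adjusted p = 0.0465), in 5 of 10 pools, which fell to 0.46 (adjusted p = 0.39) without pools 7 and 8. The 8 MALP markers were all higher in the monocyte than in the macrophage gate, with sums of 1.38 to 22.6 (median 5.93) against 2.38 to 6.10, and the sum was higher in 7 of 10 pools. Of 6 general mesenchymal markers, 2 were higher in monocytes, with a median sum of 16.4 against 19.5 and a higher sum in 5 of 10 pools. The part of either list was not tested. They were highest in pool 2 (22.6) and stood at 9.04 and 7.16 in pools 7 and 8, against 168 to 241 in MALPs, where *C4b* had a median of 0.659. In thinned cells, *C4b* was seen in 5.69% of monocytes (4.61 to 6.94) and 0.821% of macrophages, against 0 of 448 T-cells, which allows a share of up to 0.67% by the limit of 3 counts and of up to 0.82% by the two-sided exact binomial interval. The second limit overlaps the interval of macrophages (0.645 to 1.03) and the first does not reach their share. Without thinning, *C4b* was seen in 1.89% of macrophages (1.64 to 2.16) at a median of 4384 UMIs. It was seen in 2 of 584 T-cells, both in pool 8 (0.343%, 0.0415 to 1.23) at 3505.5 UMIs. These intervals did not overlap, but they count cells and not pools. By pool, the macrophage share lay between 0.249% and 6.28%, so no difference over pools is read from them. *Cfb* was 0.561 in pool 14 and 0.271 in pool 8, at most 0.0611 in the others, and at 0 in 5 of 10. It was seen in 1.94% of thinned monocytes (1.32 to 2.74), above 0.223% of T-cells (0.00565 to 1.24). In MALPs the share was 0.431% (0.3 to 0.599), within that T-cell interval, against 0.039% of LMPs (0.0106 to 0.1). *C1ra* in monocytes was at 0 in 4 of 10 pools and highest in pool 8 (0.247), with a log2 fold change of 0.84 ± 0.37 (edgeR, adjusted p = 0.103). *C1s1* stayed at or below 0.0396 in every myeloid sum.

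Partner genes were compared over the 16 pools on a log2(UMIs per 10,000 + 0.1) scale, in 4 pairs with p-values adjusted over them. *C1qa* and *C1qb* rose and fell together in macrophages (Pearson's r = 0.712, adjusted p = 0.00394, Spearman's rho = 0.7, adjusted p = 0.00688, permutation tests, two-sided, n = 16), and r was 0.587 without pools 7 and 8. *C1ra* and *C1s1*, the neighbours on chromosome 6, did so in LMPs (r = 0.772, adjusted p = 0.00248, rho = 0.803, adjusted p = 0.00136, permutation tests), with r = 0.738 without pools 4 and 14. *C3* and *C4b* in MALPs gave r = 0.582 (adjusted p = 0.0234) and rho = 0.562 (adjusted p = 0.0342, permutation tests), but r was 0.43 without pools 2 and 3, the pools farthest from the median of *C3*, and the adjusted p was 0.0603 without pool 13. *C3* and *Cfb* in MALPs did not pass (r = 0.258, adjusted p = 0.342, rho = 0.362, adjusted p = 0.168, permutation tests). *Cfb* held between 2 and 37 UMIs per pool there, and its levels (0.00329 to 0.0702) all lay under the added 0.1. So few counts cannot show whether these 2 genes vary together, and nothing is read from this pair. The points of a pair share their library and its depth.

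**Figure D4:**
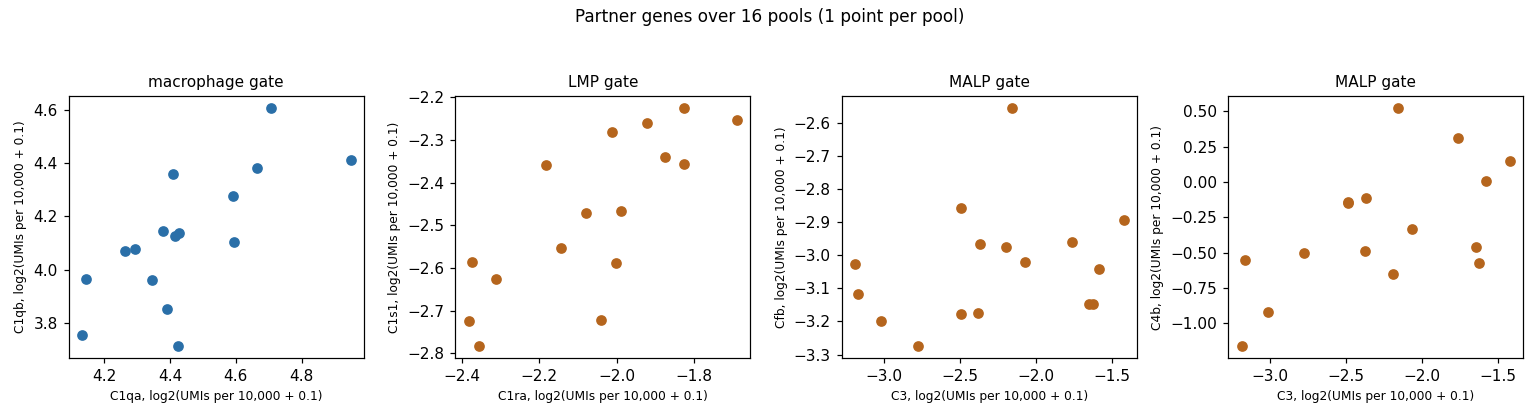
Levels of 4 gene pairs over 16 pools, 1 point per pool, both axes as log2(UMIs per 10,000 + 0.1): C1qa and C1qb in macrophages, C1ra and C1s1 in LMPs, and C3 with Cfb and with C4b in MALPs. The first 2 pairs rise together (r of 0.712 and 0.772), and C3 with Cfb shows no clear trend (r of 0.258) at 2 to 37 Cfb UMIs per pool.

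The wider pathway was followed in a list of 53 other complement genes, 52 of which are in the files. Of 31 tested, 13 were higher and 16 lower in macrophages than in the mesenchymal gates (edgeR), beside 39.1% and 46.5% of all genes, so the counts are near the background. Among the higher genes, *C3ar1*, the receptor of the C3a fragment, had 5.90 ± 1.02 UMIs per 10,000 there and a log2 fold change of 7.62 ± 0.17, *C5ar1*, the C5a receptor, 7.17 ± 0.15, and *Vsig4*, a receptor for C3 fragments, 7.31 ± 0.16. *Cfp*, encoding properdin, the stabilizer of the alternative pathway enzyme, was higher by 5.76 ± 0.13, and the ficolin *Fcna* by 7.13 ± 0.20. The lower genes included *Cfd* (-5.82 ± 0.16), the protease that activates factor B, *C2* (-3.10 ± 0.24), the lectin pathway protease *Masp1* (-3.72 ± 0.23), the inhibitor *Clu* (-3.05 ± 0.35), and the membrane inhibitors *Cd59a* (-2.92 ± 0.14) and *Cd59b* (-2.85 ± 0.27). The paralogs *C1rb* and *C1rl* were lower too (-1.90 and -1.92), as was *C1ra*.

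Within stroma, 10 of 25 tested genes of this list were higher in MALPs than in LMPs and 7 lower, which is near the background of 39.3% and 35.4%. *Cfd*, also known as adipsin, stood at 6.96 ± 5.50 UMIs per 10,000 in MALPs and 0.0362 ± 0.0646 in LMPs (7.91 ± 0.46, edgeR, adjusted p = 1.78e-12). *C6*, a subunit of the membrane attack complex, gave 5.69 ± 0.22 and *Clu* 4.01 ± 0.16, each higher in 16 of 16 pools. In osteoblasts, 9 of 26 tested genes were higher and 11 lower than in LMPs (background 39.5% and 40.0%), the latter with *Masp1* at -3.82 ± 0.14 and *Csmd1* at -3.84 ± 0.17. In osteocyte-like cells, 5 of 21 were higher and 5 lower than in osteoblasts (background 31.5% and 31.1%), with *Clu* at 1.90 ± 0.19. Against macrophages, 5 of 17 were higher and 6 lower in monocytes (background 13.2% and 12.7%), 3 of 16 higher and 10 lower in osteoclasts (16.2% and 16.8%), and 4 of 15 higher and 9 lower in granulocytes (34.1% and 36.1%). The list was chosen with results known, so nothing is read from these counts. *Vsig4* was lower in all 3 (-2.15, -4.67 and -5.42), *C3ar1* too (-1.72, -0.98 and -4.90), and *C5ar1* was lower in monocytes (-1.04) and osteoclasts (-2.36). In granulocytes *C5ar1* was not called (-0.11, edgeR, adjusted p = 0.593), although it was lower in 9 of 11 pools. That result depends on scaling, since by library size all 15 tested genes of the list were called in granulocytes. The ficolin *Fcnb* stood at 1.65 ± 0.696 in granulocytes and was at 0 in all macrophage sums. Of the terminal components, *C7*, *C8a*, *C8b* and *C9* had means of at most 0.00251 in any of the 8 gates.

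**Figure D5:**
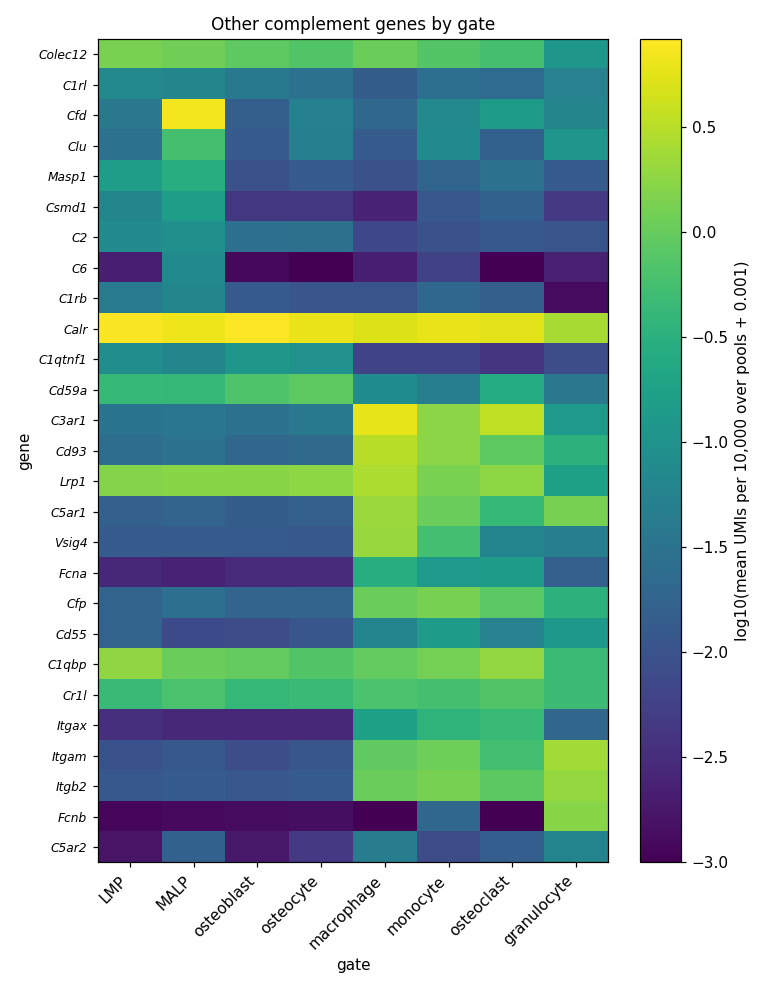
Mean UMIs per 10,000 over pools (colour, log10 after adding 0.001) of 27 other complement genes that reached 0.05 in at least 1 of the 8 gates. Cfd, Clu and C6 are brightest in MALPs, C3ar1, C5ar1 and Vsig4 in macrophages and Fcnb in granulocytes.

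The genes most like 4 of the members were taken by Pearson's r of log2(UMIs per 10,000 + 0.1) over 144 gate-by-pool sums among 5975 genes that were neither markers nor members. The values describe these sums, which share libraries and cell types, and carry no test. *C1qa* was most like *C1qb* (0.992) and *C1qc* (0.991) among members, and *Pf4* (0.975), *Msr1* (0.971), *Slc7a8* (0.968), *Ms4a6c* (0.968) and *Ms4a6d* (0.962) among the others, each highest in macrophages. *C1s1* was most like *1500009L16Rik* (0.802), *Ms4a4d* (0.795), *Pappa* (0.787), *Aoc3* (0.787) and *Rhoj* (0.783), each highest in MALPs. *C3* was most like *Wfdc21* (0.928), *Mcemp1* (0.923), *Chil3* (0.887), *Ifitm6* (0.875) and *Hcar2* (0.87), each highest in granulocytes. *Serping1* was most like *Dpep1* (0.913), *Fst* (0.908), *Bmp5* (0.903), *Fzd1* (0.895) and *Mylk* (0.894), each highest in MALPs and then LMPs. Among members, *Serping1* had r of 0.781 with *C1s1* and 0.751 with *C1ra*, whose product it inhibits, and *C1qa* had r of -0.208 with *C1ra* and -0.348 with *C1s1*, with which its protein forms the C1 complex.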

How the data were processed

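BMSC-OB cultures of 16 pools were profiled by scRNA-seq with a 10x Genomics 3′ kit. The submitters' processing notes name Cell Ranger 5.0.0 and mm10, and the authors deposited UMI counts per gene and barcode for the barcodes called cells, without normalization and before cell filters. The annotation release is not given in the sources used here, nor whether counting used strand. Cells with 400 to 6200 detected genes and at most 10% mitochondrial, 20% *Rpl* and 15% *Rps* UMIs were kept. Each cell went to the gate of highest mean z-score of its markers on a log2 scale, if it led the next gate by 0.3 and collagen and leukocyte scores fitted the side. Gate markers held no complement gene. No doublet caller was run, and only cells that failed these 2 conditions fell out of the gates. All C1q chains were seen together in 5.31% of gated T-cells, with up to 75 C1q UMIs in a cell. How many mixed droplets stayed in the gates was not tested.

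Counts were summed per pool and gate (20 cells or more) and fitted over all genes by the quasi-likelihood F test of edgeR 4.0.16 under R 4.3.3, after filterByExpr and TMM scaling, with the pool as a block, at a Benjamini-Hochberg adjusted p of 0.05. Members passed the count filter in numbers of 4 to 8 of 9 per comparison, and those that did not were described by their levels. Both gates of a pool come from the same group of mice and the same droplet library, which is where the pairing comes from. Cells were not assigned to single mice here, so the mix of mice may differ between both gates of a pool. The deviations of same-numbered pools correlated over genes with medians of 0.159 to 0.562. Tested on simulated data with 200 genes changed by known folds, the test recovered 100% of them in the 4 comparisons of stroma or of macrophages with stroma (11648 to 12973 genes), 85.5% in monocytes, 88% in osteoclasts and 91% in granulocytes against macrophages (7687 to 9232 genes). The recovered shares hold for the planted folds, give no rate of false calls and are not read as power for any member. Correlations over pools used 100000 permutations. Python 3.11.15 with numpy 2.4.6 and scipy 1.17.1 served for the rest. The printed levels reached 100 UMIs or more for 278 gene, gate and pool values, whose ratio between runs had a median of 0.993 (0.691 to 1.41).

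The genes named were the 9 members, a list of 53 other complement genes (1 of which is counted but not reported here by name), the 5 genes most like *C1qa*, *C1s1*, *C3* and *Serping1*, and markers of the gates. The members and lists were chosen with earlier results of these data known, so no count over them is independent support. Alternatives were the other run, library-size scaling, DESeq2 1.42.0, no count filter, no replicate block, a margin of 0.6, cells of 3000 UMIs or more, 50 cells per gate and pool, a pseudocount of 1 and leaving out pool 13. Leaving out pools 7 and 8, or 14 and 18, was added after seeing the data.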

Additional observations from a re-analysis of the deposited data

Results flagged for a closer look

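Among monocyte pools, *C1s1* was far from the others in pool 8 (0.0396 UMIs per 10,000, from 12 UMIs in 475 cells, next 0.0204, n = 10). So was *Cfb* in pool 14 (0.561, from 9 UMIs in 39 cells, next 0.271, n = 10). Among T-cell pools, pool 8, with 109 cells, stood apart for *C1s1* (0.0398 from 3 UMIs, next 0.00994, n = 5), *C4b* (0.119 from 9 UMIs, next 0) and *Cfb* (0.0265 from 2 UMIs, next 0). Chance marks about 1 in 20 such groups, and 18 were examined. The 30511 ungated cells also carried the genes, with 1.28 (*C1qa*), 1.03 (*C1qb*), 0.884 (*C1qc*), 0.0748 (*C1ra*), 0.0345 (*C1s1*), 0.0641 (*C3*), 0.0521 (*C4b*), 0.00244 (*Cfb*) and 0.978 (*Serping1*) UMIs per 10,000, and they held between 16% and 26.5% of each gene's UMIs.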

How the results depend on the processing

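No comparison had 5 pools or fewer, so leaving out each pool in turn was not run. Of 64 counts of members called under the alternatives, 61 stayed within 1.5 times the main count. Fitted without the pool as a block, so not paired, 4 in place of 8 members were called in osteoblasts against LMPs and 0 in place of 3 in osteocyte-like cells against osteoblasts (edgeR), where *C3* then gave 0.67 (adjusted p = 0.0835). This unpaired fit moved no other comparison's count of called members by over 1.5 times. With a margin of 0.6, 5 members were called in osteoblasts. Of 431 alternative log2 fold changes, 384 kept direction and side of the threshold, 29 lost the call, 7 gained it and 11 changed sign. Those that changed sign were *C3* in macrophages against stroma (DESeq2, -0.060), *C1qa*, *C1qb* and *C1qc* in MALPs against LMPs (library-size scaling 0.21, 0.20 and 0.21, margin of 0.6 for *C1qa* and *C1qc* 0.078 and 0.037, no block for *C1qb* 0.0018, without pools 7 and 8 for *C1qc* 0.0050), and the chains in osteoblasts against LMPs (library-size scaling -0.16, -0.040 and -0.10). *C1s1* in MALPs also lost its call in the other run (0.42, adjusted p = 0.0631), and *C1ra* gained one there (0.29, adjusted p = 0.0361). *C4b* in monocytes lost it under 6 alternatives, with values from 0.46 to 1.60. The correlation of *C3* and *C4b* lost its call without pool 13 (r = 0.521) and with a pseudocount of 1 (r = 0.514). For the 1 share of cells that was followed, 4 of 5 alternative values stayed the same and 1 moved. The cause of these changes was not tested. Library-size scaling also moved the share of calls that were higher from 50.9% to 33% in monocytes, 49.1% to 60.4% in osteoclasts and 48.6% to 22.4% in granulocytes, and the medians of all genes by -0.12, 0.08 and -0.55. All genes called in osteoclasts numbered 2792, and 1515 when 50 cells per pool were required, with 3 pools left. In monocytes all genes called numbered 2421, and 1577 without pools 14 and 18. Outside stroma, *Cfb*, *C1s1* and *C1ra* held few UMIs, with 16, 26 and 268 in the macrophage gate. Within stroma, *Cfb* held 35 in LMPs, 15 in osteoblasts and 194 in MALPs. The part of depth in these counts was not tested.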
